A study of Mus musculus with 11 samples.

Results

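The cytosolic ribosomal protein genes of mouse peritoneal PMNs (neutrophils, short-lived leukocytes that enter inflamed tissue early) were picked by name from a table of gene expression. The rule took Rps and Rpl genes with a number, Rpsa, the stalk genes Rplp0, Rplp1 and Rplp2, and variants of these with a suffix, and left out rows named as pseudogenes. It found 87 of the 54164 rows, 33 with names of the small subunit and 54 with names of the large subunit. Of these, 83 had a mean of at least 1 TPM (transcript abundance scaled to a fixed total per library) and were tested among 12195 such genes, and the other 4 (Rpl32l, Rpl10l, Rpl6l and Rpl39l) had means of 0.0163 to 0.227 TPM. The name rule misses some genes that encode cytosolic ribosomal or ribosome-bound proteins, and Rps3a1, Fau and Rack1 are described separately.

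The libraries came from C57BL/6 mice of either sex aged 6 to 8 weeks that were WT (n = 5) or homozygous FOXO3 KO (n = 6) littermates, and the methods name no restriction of the knockout to PMNs. Both genotypes received 2 intraperitoneal casein injections of 1 mL, and peritoneal cells were harvested 3 h after the second and enriched for PMNs on a density gradient, with purity checked by Ly6G staining. RNA from each mouse was sequenced as paired ends, to ask which transcripts depend on FOXO3, a transcription factor that restrains lipid droplets. Foxo3 itself had 7.61 to 11.7 TPM in WT and 0.844 to 4.27 TPM in FOXO3 KO libraries, with no overlap (exact permutation test, two-sided, p = 0.0022, which is the lowest possible with 5 and 6 libraries).

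Each ribosome holds 1 copy of nearly every ribosomal protein, so cells make these proteins in matched amounts. Among the stalk proteins, those of Rplp1 and Rplp2 are the known exception with more copies. Their mRNAs begin with a pyrimidine tract, the terminal oligopyrimidine (TOP) motif, which lets mTORC1 and the RNA-binding protein LARP1 set how fast they are translated. PMNs make little protein compared with lymphocytes and dividing cells.

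The libraries fell into 2 sets before any genotype was considered. The columns numbered 1 to 3 in each genotype (6 libraries, here the first series) and the columns with 2-digit numbers (WT 03 and 08, FOXO3 KO 05, 06 and 09, the second series) differed in many genes, and the labels do not say what the numbering stands for. Of all genes tested, 8.36% were higher and 12.3% lower in the second series (limma, FDR < 0.05). Among rows at 1 TPM or more in every library of one series and at 0 in every library of the other, 10 belonged to the first series and 7 to the second, and the second set held the intestinal epithelial genes Lypd8, Spink4, Clca1, Car1, Dmbt1 and Agr2. The library totals were 935140 to 952238 TPM, and the read depth behind them is unknown. S100a8 and S100a9, the main cytosolic proteins of PMNs, took 10.5% to 25.1% of TPM, and all 12 mature PMN markers were detected in every library. Since these are bulk libraries, fewer cells of a type and less RNA per cell cannot be told apart.

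The ribosomal protein rows together held a small part of the RNA in the first series and more than that in every library of the second. Their share of TPM was 4.62%, 3.06% and 2.98% in WT 1, 2 and 3, and 5.39%, 3.69% and 3.51% in FOXO3 KO 1, 2 and 3. In the second series it was 8.23% and 7.0% in WT 03 and 08, and 14.2%, 8.15% and 7.61% in FOXO3 KO 05, 06 and 09. The mean share was 3.88% ± 0.95 (SD, n = 6) in the first series and 9.03% ± 2.91 (SD, n = 5) in the second, with no overlap between them. FOXO3 KO 05 stood apart from the other libraries of its series and had the highest level of 76 of the 83 tested members. At the other end, WT 3 had the lowest level of 47 members and WT 2 of 29. Deviations on the log2 scale were taken from each gene's mean over the 11 libraries. Their median in FOXO3 KO 05 was 1.31 for the members and 0.02 for all genes. In WT 3 it was -0.87 and -0.19, and in WT 2 -0.82 and -0.11. The share of all genes highest or lowest in these libraries was not counted. Small subunit rows made up 43.6% to 46.4% of the ribosomal protein TPM in the first series and 46.6% to 47.7% in the second, a small step next to that of the total, again with no overlap.

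**Figure D1:**
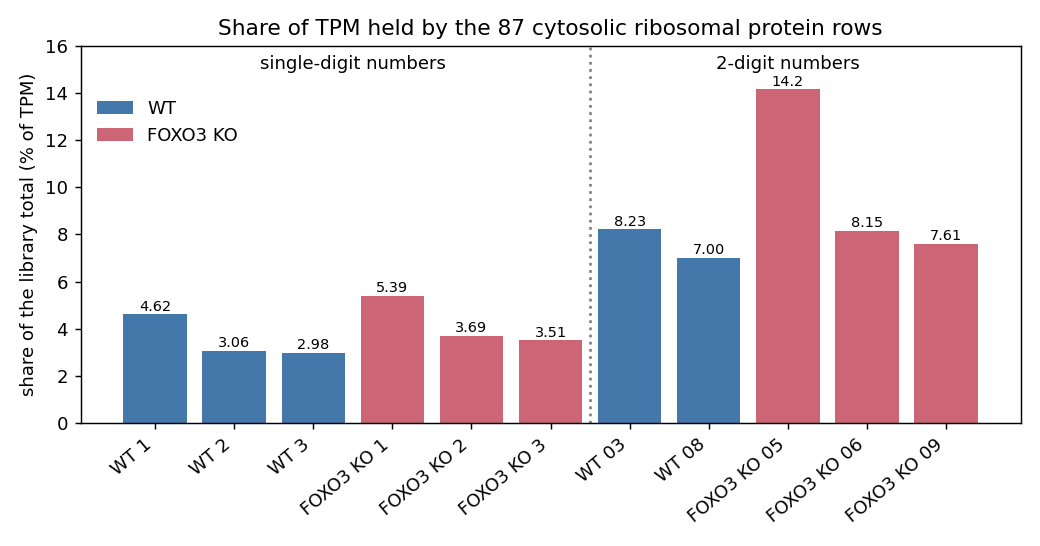
Share of each library's TPM (percent, bars) held by the 87 ribosomal protein rows, by library, with WT in blue, FOXO3 KO in red and a dotted line between the libraries with single-digit and 2-digit numbers. The 6 libraries on the left lie between 2.98% and 5.39%, and the 5 on the right between 7.0% and 14.2%.

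The member rows were not at equal levels, although nearly all of the proteins are used in equal numbers. Over the 76 protein-coding members that are not variants, the mean TPM ran from 15.6 to 2763 with a median of 709, and 58 of the 76 lay within 2-fold of that median. The highest were Rps27 (2763 ± 1882 TPM, SD, n = 11), Rps29 (2218 ± 1216), Rps9 (1658 ± 624), Rplp1 (1657 ± 1060) and Rps24 (1638 ± 998), where the SD includes the difference between the series. The lowest of the protein-coding members that are not variants were Rpl5 (15.6 ± 6.65 TPM), which carries the ribosomal 5S RNA together with Rpl11, and Rps14 (19.2 ± 5.32 TPM). Rpl11 itself had 536 ± 321 TPM.

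Several of the low values stood beside high values in pseudogene rows of the same sequence. Gm15500, a pseudogene row whose transcript is 100% identical to that of Rpl5 over 1018 of 1019 bases, had a mean of 606 TPM, and all pseudogene rows that match Rpl5 held 97.5% of the summed TPM of that family. In the same way pseudogene rows held 97.1% of the family of Rps12 (Rps12-ps3, 1680 TPM), 97.2% of that of Rpl12 (Gm10275, 914 TPM) and 80.4% of that of Rpl27a (Gm7536, 965 TPM). Of the 83 members tested, 10 had at least 50% of their family in pseudogene rows, the other 6 being Rps23 (74.5%), Rpl28 (63.7%), Rpl27 (63.5%), Rps20 (53.6%), Rpl31 (53.0%) and Rpl10a (50.04%), and 23 had at least 10%. Reads from a gene and an identical copy cannot be told apart, so the levels of such members are uncertain. The pseudogene rows Rpl27-ps3 and Gm11518, which both match Rpl27, had the same value in every library (mean 210.4 TPM). With the matched pseudogene rows added, 68 of the 76 members lay within 2-fold of a median of 827 TPM. Rps14 was then the lowest at 19.5 TPM, since its matched pseudogene rows held only 1.57% of its family.

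**Figure D2:**
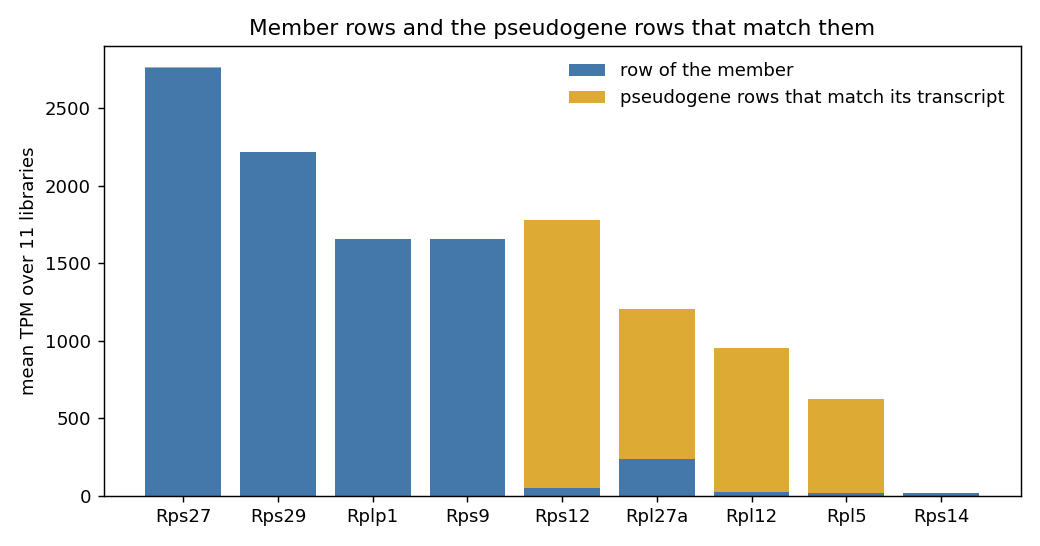
Mean TPM over 11 libraries (bar height) of 9 ribosomal protein genes, split into the row of the gene (blue) and the pseudogene rows whose transcripts match it (yellow). Rps27, Rps29, Rplp1 and Rps9 are nearly all blue, whereas pseudogene rows make up 97.5% of the bar of Rpl5, 97.2% of Rpl12 and 97.1% of Rps12, and Rps14 is low in both parts.

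The copies also changed between the series. Pseudogene rows made up 18.5% to 19.2% of the summed ribosomal protein families in the first series and 13.9% to 14.5% in the second, with no overlap. Rps13-ps2 had 82.8 to 147 TPM in the first series and was listed at 0 in the whole second series. Rps12l1, a member row that the GENCODE annotation calls a processed pseudogene, had 209, 70.4 and 5.72 TPM in WT 1, 2 and 3 and 190.2, 1.59e-05 and 4.25 TPM in FOXO3 KO 1, 2 and 3, and was listed at 0 in all 5 libraries of the second series. It was the only member called lower there (log2 difference -4.31, FDR = 0.028) and the only one with every library of the second series below the first, as were 6.86% of all genes. That call is lost without WT 2, WT 08, FOXO3 KO 05 or FOXO3 KO 06. Values of the next comparison are therefore also given with the pseudogene rows added to the member they match.

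Between the series, most ribosomal protein genes moved together. Of the 83 members tested, 73 were higher in the second series and 1 was lower (limma with genotype as a term, FDR < 0.05), where 8.36% of all genes were higher. The median difference of the members was 1.11 on the log2(TPM + 1) scale, beside -0.15 for all genes, and it was above 0 for 77 members, where it was for 38% of all genes. For 62 members every library of the second series lay above every library of the first, as did 6.15% of all genes. Both subunits took part, with 27 of 33 small subunit members (median 1.22) and 46 of 50 large subunit members (median 1.05) higher. The 4 members on the X chromosome (Rpl10, Rps4x, Rpl36a and Rpl39) were all higher, by 0.73 to 1.60.

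The members with the smallest p in this comparison were Rps27, Rps28, Rpl10a, Rpl27 and Rps15. Rps27, a zinc finger protein of the small subunit (chromosome 3, 90212522 to 90213651, minus strand, GRCm38), had 1469, 1224 and 1245 TPM in WT 1, 2 and 3 and 1532, 1228 and 1348 TPM in FOXO3 KO 1, 2 and 3. In the second series it had 3566 and 3700.0 TPM in WT 03 and 08 and 7071, 4175 and 3831 TPM in FOXO3 KO 05, 06 and 09. The first series was tight and every library of the second lay above it, by 1.67 on the log2 scale (SE 0.18, FDR = 0.00018). Rps28, another small subunit protein (chromosome 17, 33819027 to 33824562, minus strand), had 308 to 579 TPM (median 393) in the first series and 1457, 1170.3, 2321, 1439.8 and 1345 TPM in the second (log2 difference 1.82, SE 0.21). A row of the same sequence did not differ in that way. Gm10443, identical to Rps28 over 210 of 210 bases, had 361 to 809 TPM in the first series and 411 to 793 TPM in the second. With such rows added, the difference was 1.09 for Rps28, 1.28 instead of 1.76 for Rpl10a and 0.92 instead of 1.63 for Rpl27, and stayed at 1.67 for Rps27 and 1.61 for Rps15.

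Other members with known roles followed the same direction. Rps6, the small subunit protein phosphorylated by S6 kinase, had 312 to 525 TPM (median 399) in the first series and 1132, 931, 1883, 1156 and 1008 TPM in the second (log2 difference 1.52, SE 0.20). Rps19, the protein most often mutated in human Diamond-Blackfan anemia, was higher by 1.36 (SE 0.21), and Rpsa, which also serves as a laminin receptor, by 1.22 (SE 0.22). Rpl11 was higher by 1.40 (SE 0.23). All 3 stalk genes were higher, Rplp1 by 1.44 (SE 0.23), Rplp0 by 1.05 (SE 0.19) and Rplp2 by 0.64 (SE 0.19, FDR = 0.035). Rplp2 did not pass without FOXO3 KO 05 (0.55, FDR = 0.076) or with quantile normalization (0.39, FDR = 0.12). Rps27a, which is made as a fusion with ubiquitin, rose by only 0.60 (SE 0.19, FDR = 0.048) and did not pass with pseudogene rows added (FDR = 0.066), without FOXO3 KO 05 (0.47, FDR = 0.093) or with quantile normalization (0.29, FDR = 0.20).

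Of the 9 members that did not pass, 5 were variants, 2 were members with most of their family in pseudogene rows (Rpl5 and Rps12) and 2 were Rps2 and Rps14. Rpl5 had 20.4, 8.75, 11.1, 29.5, 12.9 and 11.7 TPM in the first series and 20.2, 7.86, 22.2, 15.4 and 11.9 TPM in the second, which overlap widely (log2 difference -0.02, SE 0.32). With its copies added the difference was 1.05 (FDR = 0.012). Rps12 went from 0.50 (FDR = 0.071) to 1.21 (FDR = 0.0054) in the same way. Rps14 stayed at 0.14 (FDR = 0.69), and Rps2 at 0.51 (FDR = 0.082).

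Markers of other cell types moved with this difference. Each of the 10 B cell markers passed as higher there, with 176 to 666 summed TPM in the first and 1409 to 5718 in the second, and so did each of the 7 T cell markers tested, with 15.9 to 27.7 and 96.2 to 200.1 summed TPM. No B cell marker was at 0 in any library, and the highest B cell sum was in FOXO3 KO 05, the library with the highest ribosomal protein share. The order did not hold throughout either series. In the first, WT 1 had 666 TPM of B cell markers and WT 3 had 639, with ribosomal protein shares of 4.62% and 2.98%. In the second, WT 08 had 2184 TPM and WT 03 had 1521, with shares of 7.0% and 8.23%. Of 9 macrophage markers tested, 4 were lower in the second series (186 to 1072 summed TPM against 704 to 968 in the first), and the mature PMN markers, most of whose sum is S100a8 and S100a9, ran from 103931 to 231313 summed TPM in the first series and from 126029 to 257347 in the second. Of those 12 markers 1 was lower in the second series, where 12.3% of all genes were. It was Csf3r, the receptor of G-CSF (-0.81, FDR = 0.024). With the B cell markers as a further term, which themselves did not overlap between the series, 0 of the 83 members passed as higher, beside 0.041% of all genes, and 0 had an unadjusted p under 0.05, beside 1.89%. The members' median was then 0.32 and that of all genes -0.13. Without FOXO3 KO 05, 67 members were higher, beside 6.8% of all genes, with medians of 0.95 and -0.15. Within FOXO3 KO alone 29 members were higher, beside 4.26% of all genes, with medians of 1.12 and -0.22. Within WT alone, at 3 against 2 libraries, 1 member was higher, beside 0.763% of all genes, and 67 had an unadjusted p under 0.05 in that direction, beside 6.52%, with medians of 1.07 and -0.02.

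The sex of the mice was not even over the series. In WT, the first series had 37.2 to 67.5 TPM of Xist, which is made from the inactive X of female cells, and at most 0.264 TPM of the Y-linked Ddx3y, while WT 03 and 08 had 18.3 to 20.2 TPM of Ddx3y and at most 0.115 TPM of Xist. Series and sex therefore cannot be told apart within WT. In FOXO3 KO both kinds occurred in each series, with Ddx3y at 42.9 TPM in FOXO3 KO 3 (beside 4.29 TPM of Xist) and 18.03 TPM in FOXO3 KO 09 and at most 0.196 TPM in the other 4 libraries. With Xist as a further term over all 11 libraries, added after the values were seen, 75 members were higher in the second series, beside 10% of all genes, with a median of 1.40.

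**Figure D3:**
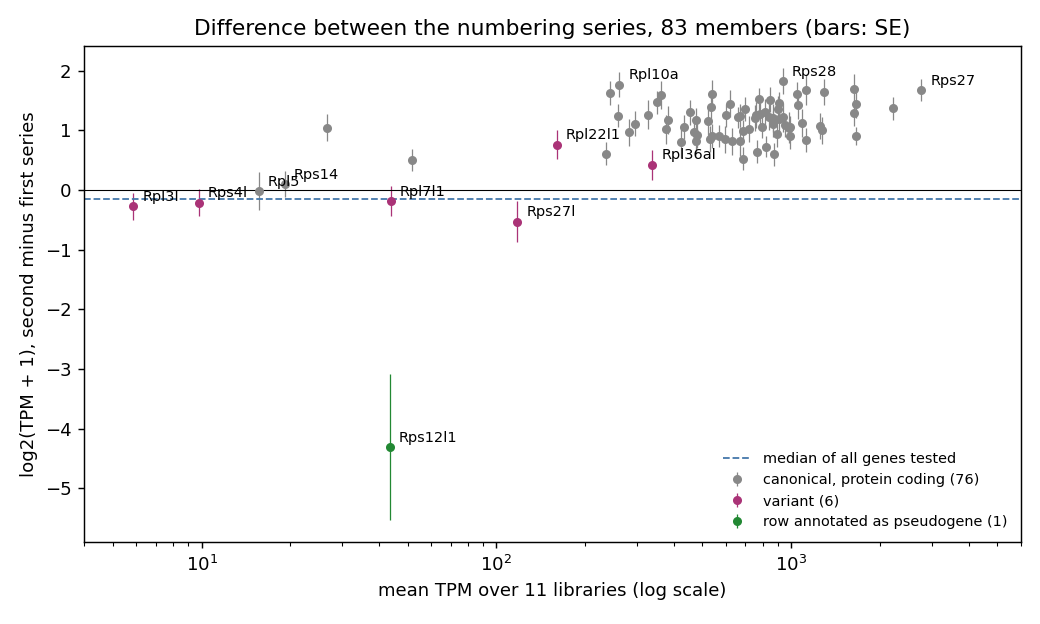
Difference between the numbering series (second minus first, log2(TPM + 1), points, with bars for the SE) against mean TPM over 11 libraries (log axis) for the 83 members, with variants in purple, a row annotated as a pseudogene in green and the median of all genes (-0.15) as a dashed line. Most gray points lie between 0.5 and 1.82, the variants Rps27l, Rpl3l, Rps4l and Rpl7l1 lie below 0, and Rps12l1 lies at -4.31.

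The bases around the annotated start are shown for members of each kind, because the TOP motif begins at the start of the mRNA. The sequences are from RefSeq on GRCm38.p6, 15 bases before and 15 after the start, with the longest run of C and T in capitals. Rps6, Rps27, Rps18, Rpl14 and Rpl35 were higher in the second series and hold a long run, Rps28 was higher and holds a short one, and Rps27l, Rpl7l1 and Rpl22l1 are variants. Rps18, Rpl14 and Rpl35 fall outside the rule for named genes and serve as examples only. Rpl10a, Rpl27 and Rps15, not shown, were also higher and hold longest runs of 7, 5 and 3 bases. Whether run length goes with the difference between the series was not tested.
Rps6 (chr4:86857353-86857382, minus): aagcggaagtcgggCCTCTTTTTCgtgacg
Rps27 (chr3:90213634-90213663, minus): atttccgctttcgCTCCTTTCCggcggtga
Rps18 (chr17:33955651-33955680, minus): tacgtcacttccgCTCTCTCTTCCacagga
Rpl14 (chr9:120571502-120571531, plus): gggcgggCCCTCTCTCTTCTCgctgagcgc
Rpl35 (chr2:39005117-39005146, minus): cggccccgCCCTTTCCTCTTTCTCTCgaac
Rps28 (chr17:33824548-33824577, minus): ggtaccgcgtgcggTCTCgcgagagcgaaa
Rps27l (chr9:66946071-66946100, plus): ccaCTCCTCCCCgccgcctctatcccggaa
Rpl7l1 (chr17:46782642-46782671, minus): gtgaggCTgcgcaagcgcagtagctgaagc
Rpl22l1 (chr3:28805493-28805522, plus): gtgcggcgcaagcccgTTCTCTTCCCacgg
Of the 87 members, 64 had such a window. A run of at least 8 pyrimidines was found in 43.8% of them (28 of 64) and in 13.9% of all 27025 genes with a window, and the median longest run was 7 against 5 bases. The letters CTTTC on the sense strand of these 30 bases occurred in 26.6% of members and 4.76% of all genes. Over the 300 bases from 250 before to 50 after the start, on both strands, CCGGAAG (bound by ETS factors such as GABP) occurred in 39.1% of members and 9.93% of all genes, GGGCGG (bound by Sp1) in 60.9% and 38.2%, and AAGATGG (bound by YY1) in 15.6% and 7.28%. Among the 7 variants with a window, 2 held a run of at least 8 pyrimidines. These matches describe letters in a window, not sites in use.

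Most of the variants, which are paralogs of standard ribosomal protein genes, were not higher in the second series. Of the 6 variants tested, 1 passed, Rpl22l1, where 8.36% of all genes were higher. The median difference of the variants between the series was -0.20, near the -0.15 of all genes, against 1.16 for the 76 other protein-coding members. Rps27l, a p53-induced paralog of Rps27 (chromosome 9, 66946086 to 66949516, plus strand), had 169, 102 and 89.9 TPM in WT 1, 2 and 3 and 212, 123 and 109 TPM in FOXO3 KO 1, 2 and 3. In the second series it had 179 and 62.7 TPM in WT and 104, 45.0 and 98.8 TPM in FOXO3 KO, within or below the range of the first (log2 difference -0.53, SE 0.34, FDR = 0.29, and -0.71, FDR = 0.023 with sample weights). Rps27l made up 6.73% to 12.1% of the sum of both genes in the first series and 1.07% to 4.79% in the second, with no overlap.

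The same was found for 4 other pairs. Rpl36al, an autosomal paralog without introns in its coding part of the X-linked Rpl36a, held 56.2% to 63.8% of the pair in the first series and 32.9% to 50.5% in the second. In TPM, Rpl36al had 177 to 468 in the first series and 272 to 503 in the second (log2 difference 0.42, FDR = 0.25, and 0.56, FDR = 0.030 with median-of-ratios scaling), while Rpl36a had 138 to 279 and 425 to 1012. Pseudogene rows held 32.7% of the family of Rpl36a, whose difference between the series was 1.60 without them and 1.29 with them added. Rpl7l1, a paralog of Rpl7, held 7.48% to 11% and 3.33% to 7.11%. Rpl3l, the striated muscle paralog of Rpl3, held 1.68% to 3.64% and 0.458% to 1.22%, and Rps4l, whose row GENCODE annotates as a transcribed pseudogene, held 1.5% to 2.90% of its sum with Rps4x and 0.410% to 1.30%. The log2 ratio of variant to namesake was lower in the second series by 2.23 for Rps27l, 1.51 for Rps4l, 1.46 for Rpl3l, 1.18 for Rpl36al and 1.04 for Rpl7l1 (two-sided exact permutation tests over 462 splits, p = 0.0022 each, the smallest possible, and 0.0026 adjusted over 6 pairs). This test was added after the values were seen. Each of these 5 namesakes was itself called higher in the second series on the same values, from 0.85 for Rpl7 to 1.67 for Rps27. A variant that did not rise with its namesake therefore has a lower ratio, so these p-values are not separate evidence about the variants. In both WT and FOXO3 KO each of these 5 ratios was lower in the second series.

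Rpl22l1 was the exception among the variants. This paralog of Rpl22, whose level Rpl22 is known to repress in mice, had 88.5 to 156 TPM in the first series and 218, 149, 340.2, 149 and 191 TPM in the second, and rose by 0.76 (SE 0.24, FDR = 0.047), close to 0.80 for Rpl22. Without FOXO3 KO 05 it did not pass (0.59, FDR = 0.097). Its share of the pair was 23.6% to 31.4% and 24.8% to 30.0% (exact permutation test, p = 0.65). Rpl39l and Rpl10l, paralogs best known from the testis, were at or near 0, with Rpl39l at up to 0.549 TPM and Rpl10l at up to 0.220 TPM.

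**Figure D4:**
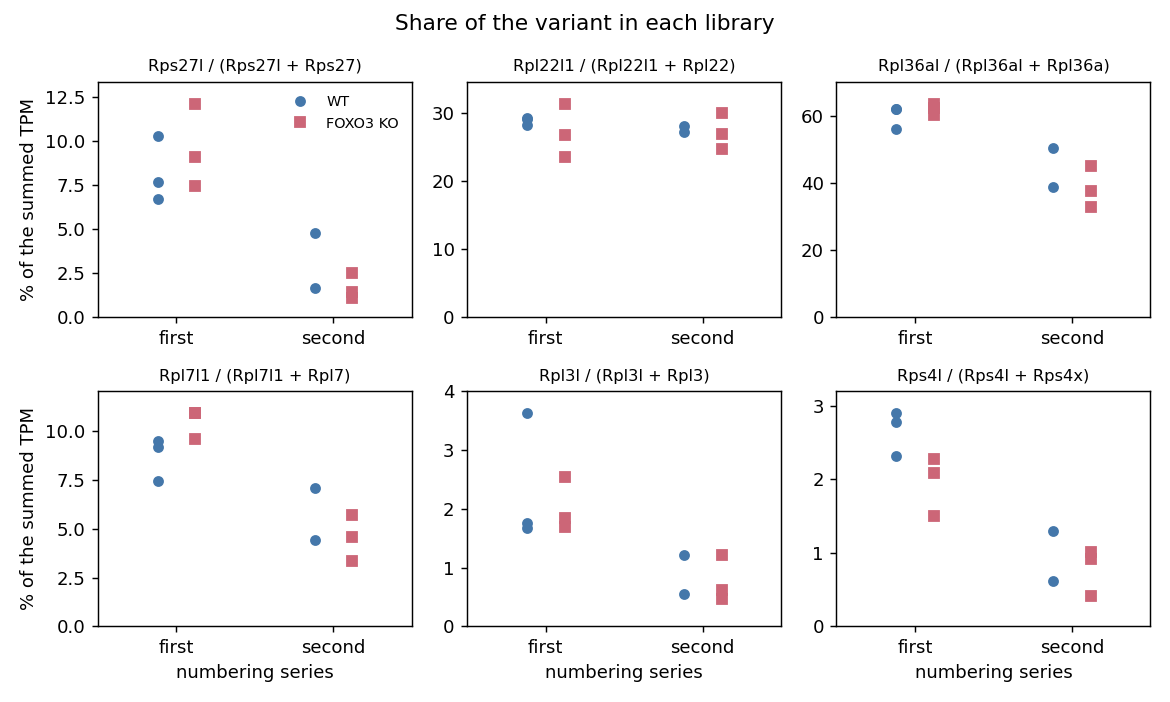
Percent of the summed TPM of a variant and its namesake that the variant held, 1 point per library, by numbering series, with WT as blue circles and FOXO3 KO as red squares and each vertical axis from 0. In 5 of the 6 panels the second series lies wholly below the first, for Rps27l at 1.07% to 4.79% against 6.73% to 12.1%, and for Rpl22l1 the series overlap.

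Genotype was compared next, and no ribosomal protein gene passed. With genotype as the only term, 0 of 83 members were called (limma, FDR < 0.05), as were 0% of all 12195 genes, and 0 members had an unadjusted p under 0.05, where 2.11% of all genes did. The members leaned to FOXO3 KO. The difference was above 0 for 80 of 83 members, where it was for 68.6% of all genes, and the median was 0.39 beside 0.11 for all genes. Much of that size rested on FOXO3 KO 05, since without it the members' median was 0.17 while that of all genes stayed at 0.11. Quantile normalization took the median of all genes from 0.11 to 0.01 and that of the members to 0.31, with 79 of 83 above 0, and median-of-ratios scaling took them to 0.00 and 0.26. With Xist as a further term 0 members were called, and the medians were 0.46 for the members and 0.09 for all genes. Cell type markers leaned by genotype too, with 0 called. All 10 B cell markers (median 0.55) and all 7 T cell markers tested (0.36) were above 0. Of the mature PMN markers 0 of 12 were (-0.34), and of the macrophage markers 0 of 9 (-0.63). Within the first series the B cell sums leaned the other way. They were 666, 237 and 639 TPM in WT 1, 2 and 3. In FOXO3 KO 1, 2 and 3 they were 419, 176 and 353 TPM. In the second series they were 1521 and 2184 TPM in WT and 5718, 3237 and 1409 TPM in FOXO3 KO. T cell sums overlapped between the genotypes in the first series and were higher in FOXO3 KO in the second. Whether the members' lean goes with these markers was not tested.

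The smallest p among the members belonged to Rpl13, Rpl4, Rpl27a, Rpl12 and Rps26, all large subunit proteins except the last. Rpl13 (chromosome 8, 123102350 to 123105244, plus strand) had 545.0, 347, 341, 647 and 631 TPM in WT and 619.6, 427, 429.8, 1459, 855 and 639 TPM in FOXO3 KO. The genotypes overlapped, and the log2 difference of 0.47 (SE 0.32, FDR = 0.99) fell within the spread between libraries. Without FOXO3 KO 05 it was 0.25 (SE 0.26). Rpl4 had a difference of 0.46 (SE 0.33), Rpl27a of 0.35 (SE 0.26), Rpl12 of 0.50 (SE 0.37) and Rps26 of 0.43 (SE 0.33), none past the test. Below 0 were Rps12l1 (-1.66, SE 1.71), Rps4l (-0.11, SE 0.23) and Rps27l (-0.09, SE 0.37). For Rps6, the means were 642 ± 369 TPM in the 5 WT libraries and 895 ± 581 TPM in the 6 FOXO3 KO libraries (± SD).

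The genotypes were also compared within each series. In the first series alone the members' median was 0.26 beside 0.20 for all genes, with 79 of 83 members and 76.6% of all genes above 0. In the second series alone, at 2 against 3 libraries, it was 0.33 beside 0.04, with 81 of 83 members and 54.3% of all genes above 0. Genotype was partly mixed with sex in both. In the second series WT 03, WT 08 and FOXO3 KO 09 had the Y-linked Ddx3y, and FOXO3 KO 05 and 06 had Xist instead. In the first series only FOXO3 KO 3 had Ddx3y at more than 0.264 TPM. The 3 equal-numbered pairs of the first series gave members' medians of 0.23, 0.29 and 0.26, beside 0.18, 0.22 and 0.21 for all genes. Libraries with number 1 had the highest level of the first series in their genotype for 82 of 83 members in WT and 81 of 83 in FOXO3 KO. All genes leaned the same way, with median log2 deviations from their means of 0.12, -0.11 and -0.19 in WT 1, 2 and 3. In FOXO3 KO 1, 2 and 3 these were 0.31, 0.12 and 0.03, and the share of all genes highest in number 1 was not counted. With the numbers as a block, 0 members were called, and 3 (Rpl10a, Rpl12 and Rpl3) had an unadjusted p under 0.05, which is 3.61% of members beside 4.44% of all genes. The genotype difference did not pass a test of difference between the series for any member (interaction in limma, 0 at FDR < 0.05 and 0 at an unadjusted p under 0.05, where 2.08% of all genes had one).

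**Figure D5:**
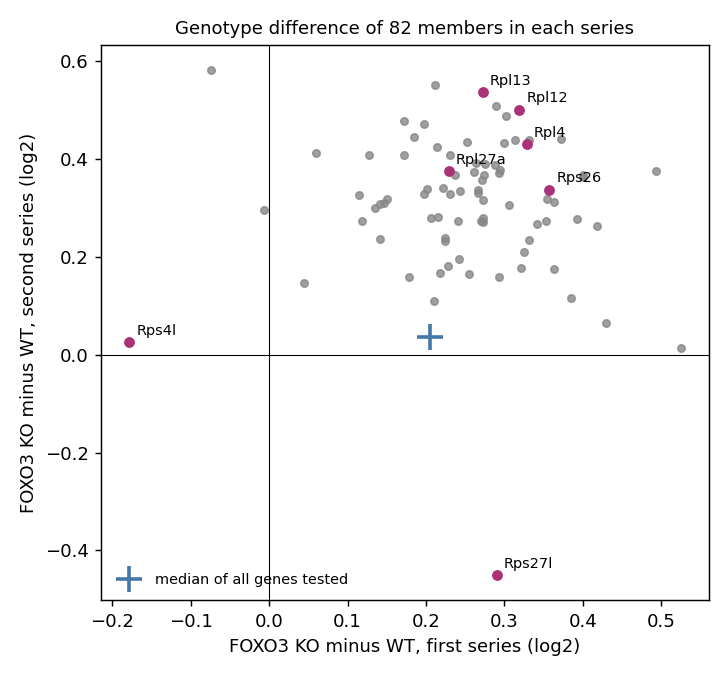
Genotype difference (FOXO3 KO minus WT, log2) of 82 members in the first series (horizontal) and the second (vertical), 1 point per gene, with named members in purple and the median of all genes tested as a blue cross; Rps12l1, at -2.22 and 0, is left out. Most members lie above 0 on both axes, around medians of 0.26 and 0.33, and none passed the test in either series.

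Genes that work with the ribosome were read beside its proteins. Of all genes, 8.36% were higher and 12.3% lower in the second series, with a median of -0.15. Of the ribosomal proteins outside the name rule, Rps3a1 (1.04) and Rack1 (0.99) were higher in the second series, and Fau (0.45, FDR = 0.20) did not pass. Fau was low, at 5.23 ± 1.36 TPM in the first series (SD, n = 6). Gm9843, a row annotated as a processed pseudogene, had 45.4 to 116 TPM there and was listed at 0 in the second series. The sequence of Gm9843 was not compared with that of Fau. Of 16 elongation factors and other genes with TOP mRNAs, 6 were higher and 0 lower, with a median of 0.54. Those 6 were Eef1b2 (1.01), Eef1d (0.87), Eef2 (0.80), Eef1g (0.79) and Eef1a1 (0.73), which carry the elongation steps of translation, and Eif4b (0.61). The rest of the list did not pass. Among them were Tpt1 at 2976 ± 525 and 3325 ± 636 TPM (0.16, FDR = 0.56) and Npm1 (0.54, FDR = 0.13). Eif4a2 and Pabpc1 were below 0 (-0.17 each). Of 24 other initiation factors, 2 were higher and 2 lower (median -0.16, near that of all genes), among them Eif3k (0.59), Eif5 (-1.09) and Eif4g2 (-0.70).

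Few regulators passed the test between the series, where 8.36% of all genes were higher and 12.3% lower. Of 14 regulators of mTORC1 and TOP mRNAs, 0 were higher and 3 lower, Rps6kb1, the S6 kinase (-0.71), Rheb, the activator of mTORC1 (-0.65), and Rragc (-0.51), and Larp1 was at 21.1 and 20.2 TPM in the first and second series (-0.10, FDR = 0.77). Myc, which drives ribosome synthesis, was the only one of 6 promoter factors to pass, at 12.8 ± 5.17 and 41.1 ± 17.1 TPM (log2 difference 1.55, FDR = 0.0028). Of 73 mitochondrial ribosomal proteins, 0 passed in either direction, with a median of 0.12 beside -0.15 for all genes. None of these lists had a gene called between the genotypes, and their genotype medians were 0.35 for the TOP and elongation list, 0.25 for the mitochondrial ribosomal proteins, 0.22 for the other initiation factors, 0.16 for the regulators and 0.14 for the promoter factors, beside 0.11 for all genes.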

How the data were processed

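RNA of casein-elicited peritoneal PMNs from 5 WT and 6 FOXO3 KO mice was sequenced, 1 library per mouse. The authors deposited TPM for 54164 genes, and a signal, the mean normalized count per gene over all libraries, which was used only to list it. Per the labels, the submitters' processing notes name STAR 2.6.1d, kallisto 0.46.0, DESeq2 and the builds mm10 and hg38, with no role for any. The annotation, the use of strand and the read depth are not given in the sources used here, so no counting interval can be given. A further 5 columns hold the authors' own comparison of the genotypes and were not used.

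Log2(TPM + 1) was compared for 12195 genes, those whose mean reached 1 TPM, with limma 3.58.1 (trend) in R 4.3.3, with Benjamini-Hochberg adjustment over all genes and calls at FDR < 0.05. A fold change on this scale understates the change of low genes. Genotype was the only term in the genotype fit. The series fit had genotype and series, and the interaction fit both with their product. The code was tested on simulated data. Column names gave the genotype of the libraries with 2-digit numbers, but not which labelled mouse each was. Equal numbers 1 to 3 were taken as pairs, since same-numbered libraries deviated together from their means within the series (correlations across genes 0.51, 0.17 and 0.41), while different numbers gave -0.42 to 0.09. No label states this pairing, and the correlations come from the same values as the replicate block. The correlation for number 2 was little above the highest for different numbers. Pseudogene rows were matched to member transcripts with blastn 2.17.0 (at least 90% identity over at least 50% of the pseudogene transcript), with names, types and coordinates from GENCODE M21 on GRCm38. Promoter windows are from RefSeq.

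The members and all gene lists were chosen with earlier results of these data known. The genes named are every variant member, the stalk, Rpl5, Rpl11, Rps6, Rps19, Rpsa and Rps27a, the 5 highest and 5 lowest tested members by mean TPM, the 5 of each direction with the smallest p in the genotype and series fits, and up to 3 genes per list by smallest p. Other genes, such as Tpt1, Larp1, Fau, Rps2, Rps12 and the pseudogene rows, were named after their values were seen. Alternatives were quantile and median-of-ratios scaling, a pseudocount of 0.1, no filter, a mean of at least 5 TPM, sample weights, a replicate block, the series, Xist or B cell markers as a covariate, each series or genotype alone and each library left out. The family sums, which add matched pseudogene rows, and Xist as a covariate in the series fit were added after seeing the data. A gene of the lists is not reported here.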

Additional observations from a re-analysis of the deposited data

Results flagged for a closer look

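Among 64 groups of 5 or 6 libraries checked for a single distant value, 4 had one, and chance alone flags about 1 in 20. The share of TPM held by the ribosomal protein rows was 14.2% in FOXO3 KO 05, far above the other 4 libraries of the second series. The same library was far above the other FOXO3 KO libraries in Rps27a, with 1573 TPM, and in Rps14, with 31.8 TPM. Rps12l1 had 190.2 TPM in FOXO3 KO 1, while the other FOXO3 KO libraries had at most 4.25 TPM.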

How the results depend on the processing

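In the genotype comparison 0 members were called under every alternative run, including the replicate block, which changed no call and gave a median of 0.29. Leaving out single libraries gave members' medians of 0.17 to 0.58. Between the series 73 members were higher (1019 of all genes), and 65 to 75 (736 to 1072) when single libraries were left out, 71 (1595) with quantile normalization, 76 (1697) with median-of-ratios scaling, 66 (1284) without a filter, 73 (1000) with family sums and 75 (1222) with Xist as a covariate. The count fell to 29 (519) in FOXO3 KO alone, 1 (93) in WT alone, in both from fewer samples, and 0 (5) with B cell markers as a covariate, where the median was 0.32 instead of 1.11. The 1 member called lower, Rps12l1, was 0 to 1 members when single libraries were left out, and 0 without a filter, with family sums (where that row has no value of its own), in either genotype alone and with Xist or B cell markers as a covariate. Leaving out single libraries gave medians of 0.95 to 1.21. Rpl5 went from -0.02 to 1.05 with family sums, which add its copies. The first series' mean share of 3.88% was 4.62% without S100a8 and S100a9, 3.95% without mitochondrially encoded genes and 4.76% with family sums, and the second's of 9.03% was 11%, 9.16% and 10.5%. Depth limits could not be given, since TPM keeps no read counts, and with 2 WT libraries in the second series the comparisons within WT or within that series have little power.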
